A study of Mus musculus with 32 samples.

Results

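The miRNAs of the imprinted Dlk1-Dio3 region were followed across extracellular vesicles (EVs) and tissues of a mouse ovarian cancer model. They were picked by name: 47 mature miRNAs of this region were looked up in a small RNA sequencing table of 1513 mouse miRNAs, and all 47 were found. According to the sample labels the mice were 8-week-old females, and their strain was BALB/cSlc-nu/nu, a nude strain that lacks a thymus and therefore has few T cells. The cancer cells were ID8-T6, a subclone of the mouse ovarian epithelial cancer line ID8 that spreads readily in the abdominal cavity. Cellulose nanofiber sheets laid on moist organ surfaces took up the EVs.

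The 32 libraries fell into 8 groups. In the first experiment ID8-T6 cells were injected into the peritoneal cavity. It gave 3 libraries of pelvic peritoneal EVs from tumor-bearing mice (tumor EVs), 3 of the same surface in control mice (normal EVs), 3 of tumor tissue and 3 of normal tissue, which the study describes as ovary. In the second experiment the cells were placed orthotopically, into the bursa of the left ovary. EVs were taken at day 4 and at day 0 from the liver surface, which the sample labels call diaphragm, and from the pelvic peritoneum, with 5 libraries for each site and day. Nothing in the labels states that the libraries of a group came from separate mice, so the p-values below measure only the spread between these libraries, which may be technical.

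Levels are RPM, that is, the reads of one miRNA per 1000000 miRNA reads of its library. The table lists the miRNAs with a mouse prefix (mmu-miR-127-3p, mmu-miR-379-5p, mmu-miR-134-5p and so on), which is left off below. The libraries held between 132483 and 2540577 miRNA reads. The day 4 libraries were shallower than those of day 0, at 176124 to 661582 reads on the liver surface and 132483 to 410549 reads in the pelvis, against 1022869 to 2540577 reads at day 0. Of these, 3 day 4 libraries stayed under 200000 reads.

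The Dlk1-Dio3 region is one of the best known imprinted regions of mammals. Protein-coding genes such as Dlk1 and Rtl1 are expressed from the paternal chromosome, whereas the noncoding RNAs Meg3, Rian and Mirg, and the miRNAs that lie in and between them, are expressed from the maternal chromosome. Many of these miRNAs are thought to be cut from long shared transcripts, and they are known from embryo, placenta, brain, muscle and mesenchymal cells.

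The RefSeq annotation placed the 47 members on 35 hairpins, all on the plus strand of chromosome 12, at chr12:109571990-109743795 (GRCm38), a stretch of 171.8 kb. At the Meg3-Rtl1 end lay 12 members on 8 hairpins, and 8 of these members were antisense to Rtl1, a gene derived from a retrotransposon. The single member miR-370-3p lay within Rian. The other 34 members, on 26 hairpins, formed the miR-379 to miR-410 array at chr12:109709060-109743795, and 15 members overlapped Mirg. Mature sequences were matched for 44 members, all but miR-376c-3p, miR-485-5p and miR-487b-3p.

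Mature sequences from RefSeq (GRCm38.p6) are shown for the members that carried the cluster's level or its changes, 5′ to 3′, with the seed (bases 2 to 8) in capitals. The 6 most abundant members come first, followed by miR-134-5p and miR-540-3p, which were higher at day 4 at both sites, both arms of the miR-299a hairpin, and the one pair of members with a shared seed.
miR-127-3p: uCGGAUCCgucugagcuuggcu
miR-379-5p: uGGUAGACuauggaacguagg
miR-381-3p: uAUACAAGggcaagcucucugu
miR-434-5p: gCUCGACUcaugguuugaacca
miR-541-5p: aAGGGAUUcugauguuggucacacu
miR-411-5p: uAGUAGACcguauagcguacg
miR-134-5p: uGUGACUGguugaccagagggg
miR-540-3p: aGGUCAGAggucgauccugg
miR-299a-5p: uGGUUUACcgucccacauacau
miR-299a-3p: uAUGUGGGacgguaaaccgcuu
miR-379-3p: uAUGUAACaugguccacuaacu
miR-411-3p: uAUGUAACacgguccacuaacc
The 44 sequences held 43 different seeds, so the members had little seed sequence in common. Only miR-379-3p and miR-411-3p shared one (AUGUAAC). These sequences differ at 2 of the 22 aligned bases, which is within the 2 mismatches the counting allowed, so reads of this pair may have been split between them. All other pairs of members differed at 3 or more bases.

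The number of members at 10 RPM or more differed between groups. A group mean of 10 RPM or more was reached by 12 of the 47 members in tumor EVs and by 43 in normal EVs. It was reached by 26 members in tumor tissue and by 32 in normal ovary. On the liver surface 43 members reached it at day 4 and 40 at day 0, and in the pelvis 44 at day 4 and 41 at day 0. Tumor EVs were thus the group with the fewest, and all other EV groups held 40 or more. Over the whole table the same level was reached by 313 miRNAs in tumor EVs (20.7%) and 394 in normal EVs (26.0%), and by 343 to 427 in the other groups.

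At a higher bar of 100 RPM the counts were 2 members in tumor EVs and 20 in normal EVs, 6 in tumor tissue and 7 in ovary. The orthotopic groups had 15 to 24. The 12 members at 10 RPM or more in every group were both arms of miR-127, miR-136 and miR-434 from the Rtl1 end, miR-337-5p, miR-379-5p, miR-411-5p, miR-300-3p, miR-381-3p and miR-541-5p. The members miR-376a-3p, miR-377-3p and miR-539-5p reached 10 RPM as a mean in no group. No read at all was counted for miR-539-5p and miR-540-3p in tumor EVs, for miR-377-3p in tumor tissue, or for miR-337-3p and miR-376a-3p in ovary.

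The summed level of the 47 members was lowest in tumor EVs, at 1006, 1031 and 729 RPM, against 26046, 21303 and 13580 RPM in normal EVs. The groups did not overlap, and the mean in normal EVs (20309.6 ± 6292 RPM) was 22.02 times that in tumor EVs (922 ± 168 RPM; SD, n = 3 each). Expressed as a share of all miRNA reads, the cluster took 0.0729% to 0.103% of a tumor EV library and 1.36% to 2.60% of a normal EV library. In tumor tissue it summed to 3569, 3637 and 4310 RPM, against 5373, 6211 and 5338 RPM in ovary. The tissues also did not overlap, but here the mean of ovary was 1.47 times that of tumor tissue.

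The orthotopic groups overlapped with normal EVs and with each other. Pelvic EVs summed to 37769, 20758, 16183, 13120 and 34360 RPM at day 4, against 17803, 28479, 9478, 11054 and 21326 RPM at day 0. Liver surface EVs summed to 11015, 19913, 18368, 5620 and 10886 RPM at day 4, against 19097, 18009, 4765, 7701 and 16978 RPM at day 0. The ratio of the means of day 4 to day 0 was 1.39 in the pelvis and 0.989 on the liver surface, and the groups overlapped at both sites. The 10 most abundant members carried 83.4% of the mean cluster level, and miR-127-3p alone carried between 23.7% (liver surface, day 4) and 34.1% (ovary).

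**Figure D1:**
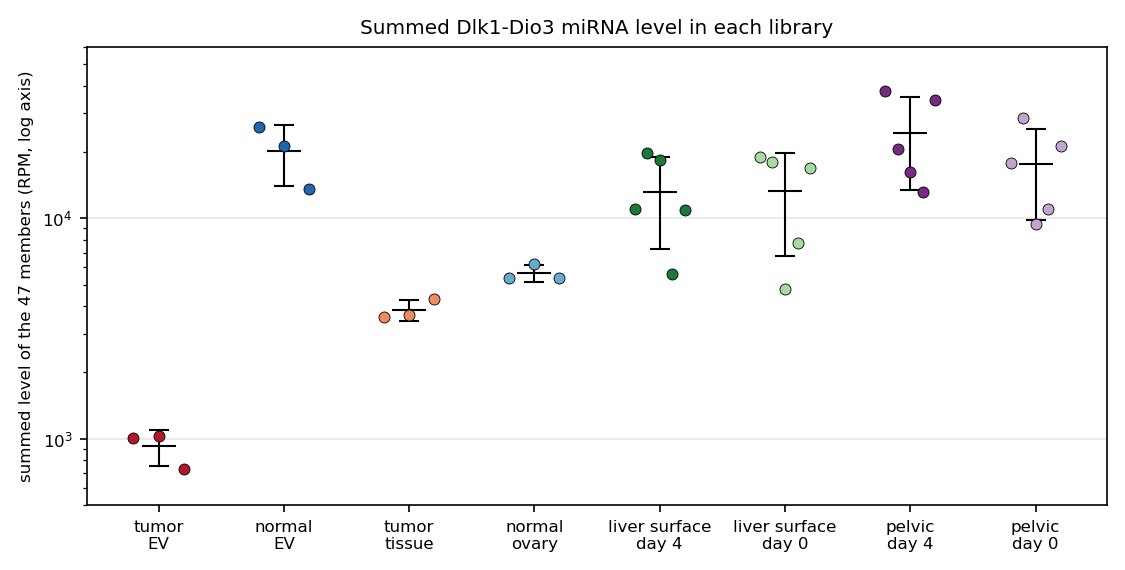
Summed level of the 47 Dlk1-Dio3 miRNAs in each of the 32 libraries (RPM, log axis) by group, with the mean and SD of each group. The 3 tumor EV libraries sit between 729 and 1031 RPM, below every other library, and the 3 normal EV libraries between 13580 and 26046 RPM.

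The comparison of tumor EVs with normal EVs asked how a tumor-bearing peritoneum changed the vesicles on its surface. Every tested member was lower in tumor EVs. The fall was large, was seen at the Rtl1 end and along the miR-379 to miR-410 array, and left the order of the members almost as it was. The test was limma on log2(RPM + 10). A miRNA was called when its Benjamini-Hochberg adjusted p was below 0.05 and its log2 fold change was larger than 1 in either direction. All 36 tested members were called lower and none higher, where 36.0% of all 378 tested miRNAs were called lower and 16.1% higher.

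All 36 passed the abundance filter through the normal EVs, and only 11 would have passed through the tumor EVs, so the filter favoured members that were low in tumor EVs. Without any filter, 40 of all 47 members were called lower and none higher, where 13.1% of 1064 miRNAs were called lower. In all 36 tested members every tumor EV library was below every normal EV library, a separation seen in 44.7% of the 378 tested miRNAs. Among all 47 members it was seen in 45, for which the share over all miRNAs without a filter was not computed. The median log2 fold change of the 47 members was -2.64, beside -0.04 for all 1064 miRNAs.

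The Rtl1 end is represented by miR-127-3p, which is fully complementary to Rtl1 mRNA and known to silence it. It was at 341, 314 and 232 RPM in tumor EVs, against 8714, 6987 and 3648 RPM in normal EVs (log2 fold change -4.33, SE 0.35, limma adjusted p = 5.93e-05). From the same antisense group, miR-434-5p was at 90.2, 79.0 and 66.7 RPM in tumor EVs, against 2312, 1654 and 1144 RPM in normal EVs (-4.22). For both, the lowest normal EV library was far above the highest tumor EV library. The 3p arm of the next hairpin antisense to Rtl1, miR-136-3p, was at 34.7, 38.7 and 18.2 RPM in tumor EVs, against 552, 439.6 and 305 RPM in normal EVs (-3.45).

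In the miR-379 to miR-410 array, the changes were of the same size. The first hairpin's product miR-379-5p was at 166, 209 and 106 RPM in tumor EVs, against 4459, 4028 and 2972 RPM in normal EVs (-4.52, SE 0.30, limma adjusted p = 2.47e-05). Its close neighbour miR-411-5p was at 61.2, 58.5 and 58.9 RPM in tumor EVs, against 2230, 1625 and 1095 RPM in normal EVs (-4.52). The tumor EV libraries agreed closely with each other for miR-411-5p, and the groups were far apart. The member miR-541-5p, towards the far end and within Mirg, was at 58.0, 56.9 and 42.4 RPM in tumor EVs, against 1568, 1411 and 995 RPM in normal EVs (-4.40).

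The lowest members could only be bounded. With no read in any tumor EV library, miR-540-3p was at least 21.9-fold lower in tumor EVs, taking 3 reads over the 3 libraries together as the floor (0.749 RPM), against 16.4 RPM in normal EVs. On the same floor miR-539-5p was at least 6.00-fold lower. Members below 10 RPM are compressed by the added 10 RPM, and this is seen in the log2 fold changes of the tested members, which ran from -4.52 to -1.41 and were larger for abundant members. As ratios of group means, the 18 members with a mean of 100 RPM or more over all groups were 14.2 to 31.1 times lower in tumor EVs, with a median of 21.6.

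The fall was nearly proportional across members. Of those 18 members, 17 kept their share of the cluster within 1.5-fold between tumor EVs and normal EVs, and the shares of the 18 members in the 2 groups had a Spearman correlation of 0.983 (n = 18 members from the same libraries, which share depth and the RPM total). The exception was miR-136-3p, at 3.3% of the cluster in tumor EVs and 2.1% in normal EVs. By position, the median log2 fold change was -3.45 for 10 tested members at the Rtl1 end, -2.78 for miR-370-3p in Rian and -2.70 for 25 members of the array. By arm, it was -2.81 for 20 members from 3p arms and -3.22 for 16 from 5p arms, whereas other tested miRNAs had medians of -0.42 and 0.01. Over 34 members the log2 fold change had a Spearman correlation of -0.977 with mean level. The medians by position and arm thus also depend on abundance, and differences between these subsets of members were not tested.

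Other miRNAs fell together with the cluster in tumor EVs. The median of all tested miRNAs was itself -0.53, and median-of-ratios scaling, which moved that median to -0.04, left the members at a median of -2.55 with 36 called lower (24.9% of all tested miRNAs). Among lists of cell type markers, all 4 leukocyte miRNAs (summed 3830 to 4082 RPM in tumor EVs and 11964 to 36909 RPM in normal EVs), all 5 epithelial miRNAs of the miR-200 family (299 to 609 RPM and 2006 to 3856 RPM), all 3 muscle miRNAs (1079 to 2129 RPM and 3754 to 8030 RPM) and both smooth muscle miRNAs were called lower in tumor EVs. Of the 4 mesenchymal miRNAs of the miR-199 and miR-214 family, 1 was called higher and 1 lower, and their sum was 2575 to 3099 RPM in tumor EVs and 3329 to 4482 RPM in normal EVs. The 4 neuronal miRNAs summed to 701 to 1005 RPM in tumor EVs and 32.6 to 107 RPM in normal EVs. Of the 2 tested, miR-9-5p was called higher in tumor EVs (mean 846 RPM, against 21.04 RPM in normal EVs) and miR-129-5p lower (3.42 RPM, against 31.5 RPM in normal EVs), and miR-124-3p was at 0 in both groups. The part of these cell types in the fall of the cluster was not tested.

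In tissue, the cluster was only slightly lower in tumors than in ovary. Tumor tissue and ovary differ in organ as well as in disease, which cannot be told apart here, nor can fewer cells of a type be told apart from less RNA per cell. Of 32 tested members, limma called 1 lower and none higher, where 10.4% of all 357 tested miRNAs were called lower and 13.2% higher. The median log2 fold change of the members was -0.44, beside -0.05 for all tested miRNAs, and 27 of the 32 values were negative. At an unadjusted p under 0.05 there were 7 members, whereas edgeR called none and DESeq2 1 (11.5% of all tested miRNAs were lower by DESeq2).

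The called member was miR-494-3p, at 5.94, 0 and 15.6 RPM in tumor tissue, against 49.3, 36.4 and 22.2 RPM in ovary (log2 fold change -1.48, SE 0.39, limma adjusted p = 0.0302). Without tumor tissue replicate 1 or without any one of the 3 ovary libraries it was no longer called. The abundant members stayed within the threshold on fold change. For miR-127-3p the values were 1257, 1145 and 1342 RPM in tumor tissue, against 1807, 1947 and 2015 RPM in ovary, with a log2 fold change of -0.62 (adjusted p = 0.0485). The groups did not overlap, although the difference was less than the fold change required for a call. Likewise, miR-379-5p was at 499, 637 and 616 RPM in tumor tissue, against 906, 1082 and 954 RPM in ovary (-0.74, adjusted p = 0.0384).

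The tissue labels were checked with the gonad miRNA miR-202-5p, a marker chosen after the values were seen. It averaged 207 RPM in tumor tissue with a range of 0 to 619 RPM, against 725 RPM in ovary with a range of 568 to 1008 RPM, so 1 tumor tissue library overlapped the ovaries. Of the 4 leukocyte miRNAs 3 were called higher in tumor tissue (summed 982 to 1854 RPM, against 496 to 752 RPM in ovary), and of the 2 smooth muscle and the 2 endothelial miRNAs 1 each was called lower. None of the 4 mesenchymal miRNAs was called (12795 to 14579 RPM in tumor tissue and 10498 to 13818 RPM in ovary). The part of these in the tissue result was not tested.

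The difference between the tumor effect in EVs and that in tissue was tested directly, as an interaction over the 12 libraries of the first experiment. For 35 of 39 tested members the effect was lower in EVs than in tissue, and for none higher, where 27.5% of all 422 tested miRNAs were called lower and 13.7% higher. The normal EVs alone were enough to pass 36 members through the filter, so it favoured members that were low in tumor EVs. Without a filter, 32 of all 47 members were called lower and none higher, where 7.98% of 1190 miRNAs were called lower. The median difference of the 39 tested members was -2.49 on the log2 scale, and for miR-127-3p, miR-379-5p and miR-541-5p it was -3.71, -3.78 and -3.96. The tissue effect is that of tumor against ovary, so it also holds the difference in organ. EV RNA and tissue RNA were extracted with different kits. The part of organ and kit in this result was not tested.

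**Figure D2:**
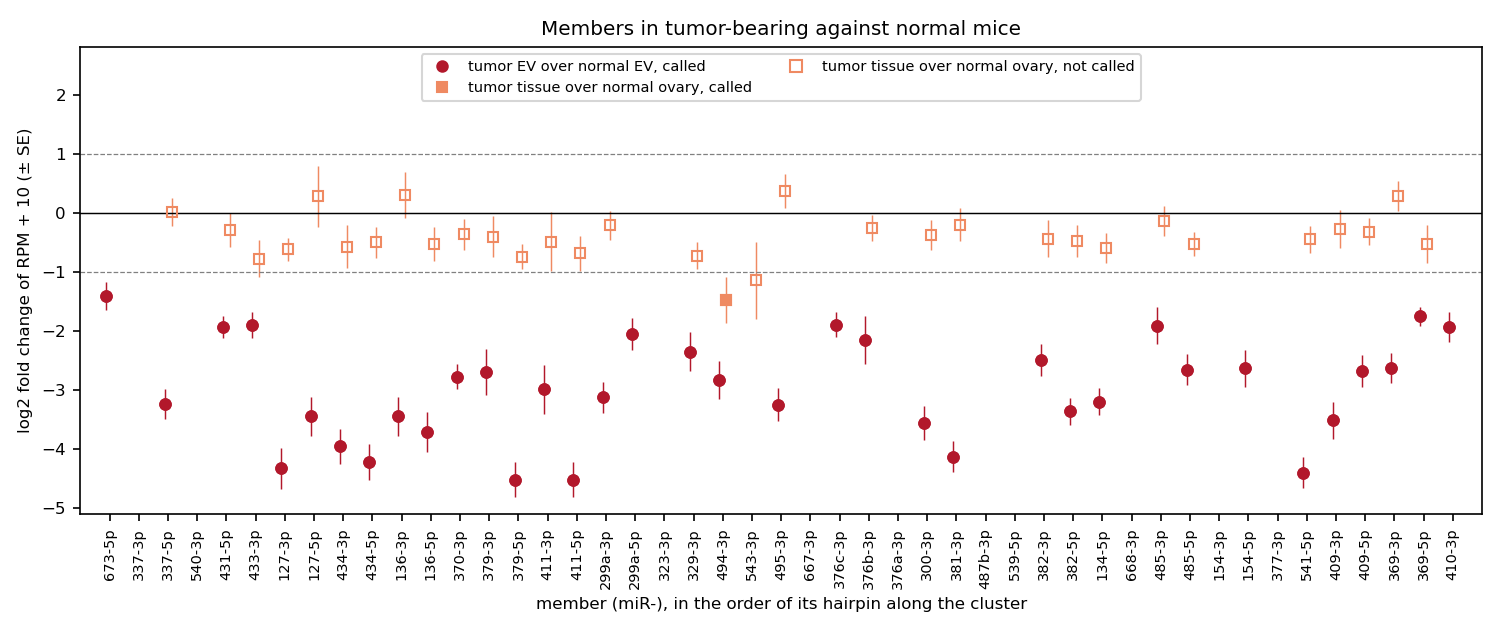
Log2 fold change (± SE) of each tested member, in the order of the hairpins along chromosome 12, for tumor EVs over normal EVs (36 members) and for tumor tissue over normal ovary (32 members). The EV values run from -4.52 to -1.41 along the whole locus, and the tissue values lie between -1.48 and 0.37.

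Setting EVs against tissue within the same kind of mouse showed the cluster on opposite sides. These comparisons share their libraries with those above, and vesicles and tissue were extracted with different kits, which cannot be told apart from the source of the RNA. In tumor-bearing mice, tumor EVs had a lower cluster than tumor tissue, which held 4.16 times as much. Of 19 tested members 15 were called lower in tumor EVs and none higher, where 23.4% of all 351 tested miRNAs were called lower and 23.9% higher. All 19 passed the abundance filter through tumor tissue and 11 would have passed through tumor EVs. Without a filter, 15 of the 47 members were called lower, where 8.15% of 1019 miRNAs were. The largest falls were those of miR-541-5p (-2.46), miR-370-3p (-2.36) and miR-409-3p (-2.33).

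The member miR-370-3p, the only one within Rian, was at 3.15, 3.95 and 1.73 RPM in tumor EVs, against 42.8, 62.0 and 67.02 RPM in tumor tissue. The groups did not overlap. For miR-136-3p the values were 34.7, 38.7 and 18.2 RPM in tumor EVs, against 15.4, 64.1 and 34.3 RPM in tumor tissue, and these overlapped (-0.15, adjusted p = 0.786). Under an added 50 RPM in place of 10 only 8 members were called, and 6 with a filter at 100 RPM, which tests fewer members. In the same comparison all 4 mesenchymal miRNAs (2575 to 3099 RPM in tumor EVs and 12795 to 14579 RPM in tumor tissue), all 5 epithelial, both smooth muscle and both endothelial miRNAs were called lower in tumor EVs, and all 4 leukocyte miRNAs higher (3830 to 4082 RPM and 982 to 1854 RPM). Their part in the result was not tested.

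In control mice the order was the other way round. Normal EVs held 3.60 times the summed level of ovary. Of 38 tested members 29 were called higher in normal EVs and none lower, where 35.9% of all 390 tested miRNAs were called higher and 23.1% lower. The filter was passed by 36 members through normal EVs alone and by 29 through ovary alone. Without a filter, 28 of the 47 members were called higher, where 13.6% of 1051 miRNAs were. The median log2 fold change of the tested members was 1.54, beside 0.50 for all tested miRNAs, and median-of-ratios scaling moved the value for all tested miRNAs to 0.04. With that scaling 22 members were called higher and 1, miR-543-3p, lower, beside 23.1% and 28.2% of all tested miRNAs.

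The largest rises were those of miR-136-3p, miR-127-5p and miR-136-5p, from 2 of the hairpins antisense to Rtl1. By position, the median log2 fold change was 1.75 at the Rtl1 end and 1.54 in the array, where the highest value was 2.47. For miR-136-3p the values were 552, 439.6 and 305 RPM in normal EVs, against 27.0, 25.2 and 24.5 RPM in ovary (log2 fold change 3.60, SE 0.29, limma adjusted p = 3.98e-05). Next were miR-127-5p, at 379, 320.0 and 184 RPM in normal EVs, against 27.0, 22.4 and 32.4 RPM in ovary (2.98), and miR-136-5p (2.64). No library of these members overlapped between the groups. Other members hardly differed, among them miR-370-3p, at 99.8, 75.1 and 64.2 RPM in normal EVs, against 68.6, 88.7 and 70.4 RPM in ovary (0.05).

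As a bound, miR-337-3p, with no read in ovary, was at least 9.97-fold higher in normal EVs, and miR-376a-3p at least 6.33-fold higher. The make-up of the cluster was less alike here than between tumor EVs and normal EVs, a difference that was not tested. Of the 18 abundant members 11 kept their share within 1.5-fold between normal EVs and ovary, with a Spearman correlation of shares of 0.787. The member miR-136-3p took 2.1% of the cluster in normal EVs and 0.5% in ovary. All 4 leukocyte miRNAs were called higher in normal EVs as well (summed 11964 to 36909 RPM, against 496 to 752 RPM in ovary), as were 2 of the 3 muscle miRNAs. All 5 epithelial miRNAs (2006 to 3856 RPM in normal EVs and 8089 to 18429 RPM in ovary), 3 of the 4 mesenchymal, both smooth muscle and both endothelial miRNAs were called lower. The part of these cell types in the rise of the cluster was not tested.

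**Figure D3:**
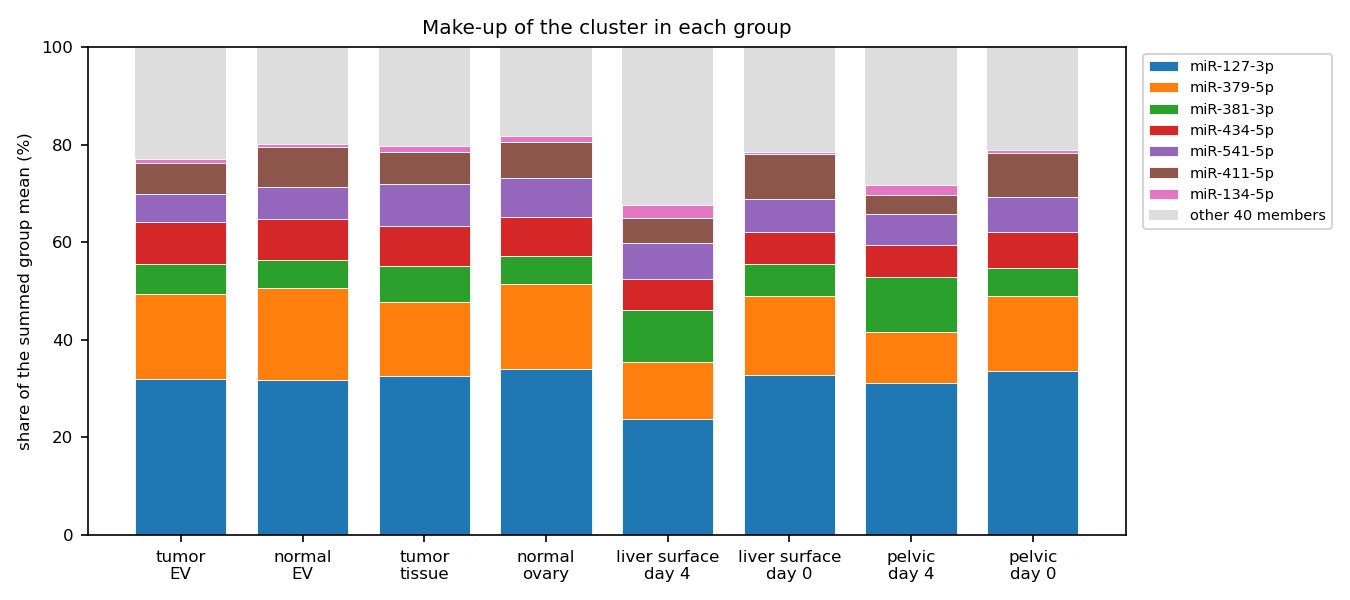
Share of the summed cluster level (percent) taken by miR-127-3p, miR-379-5p, miR-381-3p, miR-434-5p, miR-541-5p, miR-411-5p, miR-134-5p and the other 40 members, for the mean of each group. The bars of tumor EVs and normal EVs are nearly alike (miR-127-3p 32.1% and 31.8%), whereas at day 4 miR-381-3p and miR-134-5p take larger and miR-411-5p smaller shares than at day 0.

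The second experiment compared the 2 sites and followed each over time. Between the liver surface and the pelvis, limma called no member in either direction on either day. At day 0 all 41 tested members had a lower mean on the liver surface, with a median log2 fold change of -0.42 beside -0.15 for all tested miRNAs, where 0.779% of 385 tested miRNAs were called lower and the same share higher. Of the members 3 had an unadjusted p under 0.05, and neither edgeR nor DESeq2 called any. These members rise and fall together between libraries, so their common sign is not 41 separate observations.

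At day 4 the median was -0.66, beside -0.06 for all tested miRNAs, with 41 of 43 members lower on the liver surface, and 0.0% of 424 tested miRNAs were called in either direction. Here 10 members had an unadjusted p under 0.05. For miR-136-3p the values were 115, 402, 369, 209 and 68.4 RPM on the liver surface, against 776, 531, 679, 549.8 and 309 RPM in the pelvis (-1.46). The groups overlapped in part. With the replicate number as a block, miR-136-3p (adjusted p = 0.0467) and miR-434-3p (-1.17, adjusted p = 0.0399) were called lower on the liver surface by limma, where 1.18% of all tested miRNAs were, and DESeq2 called these and miR-136-5p (1.42% of all tested miRNAs), whereas edgeR called none. The change of the site difference with time was tested as an interaction, and none of 45 tested members was called by limma, edgeR or DESeq2 or had an unadjusted p under 0.05. Of all tested miRNAs limma called 0.224% in each direction.

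Between day 4 and day 0 the members moved by different amounts. A day 4 group without cancer cells was not among the groups, so the cells, the injection and time cannot be told apart in these comparisons. In the pelvis 12 of 43 tested members were called higher at day 4 and none lower, where 18.9% of all 403 tested miRNAs were called higher and 5.21% lower. The log2 fold changes ran from -1.01 to 2.29 with a median of 0.57, beside 0.18 for all tested miRNAs. Within the 2 series of library names (3 and 2 libraries per group), the median log2 differences of the 43 members were 0.92 and 0.18. Of these members 26 were higher at day 4 in both series, 6 were lower in both and 11 differed in sign.

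The largest rise was that of miR-134-5p, known from rodent neurons, where it limits the growth of dendritic spines. In the pelvis it was at 445, 497, 536, 441 and 659.8 RPM at day 4, against 108, 151, 51.8, 75.1 and 125 RPM at day 0 (log2 fold change 2.29, SE 0.31, limma adjusted p = 0.000172). On the liver surface it was at 264, 390.0, 721, 206 and 246 RPM at day 4, against 107, 119.7, 22.8, 37.7 and 63.9 RPM at day 0 (2.26, SE 0.46, adjusted p = 0.00305). At both sites every day 4 library was above every day 0 library. Its share of the cluster was 2.1% at day 4 and 0.6% at day 0 in the pelvis, and 2.8% and 0.5% on the liver surface.

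The other members called in the pelvis were miR-376b-3p (1.71), miR-370-3p (1.63), miR-540-3p (1.61), miR-299a-3p (1.54), miR-410-3p (1.48), miR-300-3p (1.40), miR-495-3p (1.34), miR-323-3p (1.33), miR-381-3p (1.30), miR-409-3p (1.17) and miR-382-5p (1.11). Except for miR-540-3p at the Rtl1 end and miR-370-3p, all of these lie in the miR-379 to miR-410 array. The array also held 30 of the 43 tested members. Its median log2 fold change was 0.57, beside 0.56 at the Rtl1 end. The member miR-540-3p was at 66.8, 60.9, 98.1, 56.0 and 103 RPM at day 4, against 12.8, 30.3, 14.999, 17.2 and 16.6 RPM at day 0, without overlap. For miR-376b-3p, of a family known for A-to-I editing of its precursors, the values were 173, 222, 174, 145 and 55.0 RPM at day 4, against 39.2, 82.1, 23.2, 27.1 and 27.3 RPM at day 0, and replicate 5 of day 4 overlapped with day 0. In 6 of the tested members every day 4 library was above every day 0 library, a separation that 13.4% of the tested miRNAs showed.

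On the liver surface 5 of 40 tested members were called higher at day 4 and none lower, where 15.5% of all 407 tested miRNAs were called higher and 2.95% lower, so the share of members called was no higher than that of the whole table. These were miR-134-5p, miR-494-3p (1.62), miR-540-3p (1.61), miR-370-3p (1.41) and miR-409-3p (1.40). Of these, 4 were also called in the pelvis, all but miR-494-3p, which is 80.0% of the 5 and 33.3% of the 12. The member miR-409-3p was at 244, 467, 602, 179 and 187 RPM at day 4, against 161, 155, 63.8, 72.2 and 115 RPM at day 0, and the groups did not overlap. The count depended on single libraries: it fell to 2 without liver surface day 4 replicate 2 or 3 or day 0 replicate 4, to 3 without day 0 replicate 3, and was 8 without day 4 replicate 5. Restricted to libraries of 200000 reads or more, a limit set after the data were seen, it was 2. Within the 2 series of library names the 40 members had median log2 differences of 0.44 and -0.13, with 17 higher at day 4 in both, 9 lower in both and 14 that differed in sign.

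Some abundant members went the other way. For miR-411-5p the values in the pelvis were 2226, 1247, 445, 293 and 474 RPM at day 4, against 1413, 3078, 878, 1134 and 1388 RPM at day 0 (-1.01, adjusted p = 0.172). On the liver surface they were 608, 1477, 585, 193 and 399 RPM at day 4, against 1394, 1971, 504, 677 and 1495 RPM at day 0 (-1.005, adjusted p = 0.203). The groups overlapped at both sites, and the member was not called. With the replicate number as a block limma called it lower in the pelvis (adjusted p = 0.0329; 6.95% of all tested miRNAs), beside 14 members called higher (19.9%). With median-of-ratios scaling it was called lower in the pelvis, beside 12.7% of all tested miRNAs, and on the liver surface, beside 9.09%. As a share of the cluster it was at 3.8% at day 4 and 9.0% at day 0 in the pelvis, and at 5.0% and 9.1% on the liver surface.

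The 3p arms and 5p arms of the hairpins stood apart at day 4, although this difference was not tested. In the pelvis 27 members from 3p arms had a median log2 fold change of 0.79 and 16 from 5p arms one of 0.09, and on the liver surface 24 and 16 members had medians of 0.75 and -0.09. The corresponding medians of other tested miRNAs were 0.03 and 0.09 in the pelvis. Among the 12 hairpins with both arms among the members, the mean log2 ratio of 5p to 3p was lower at day 4 in 9 in the pelvis and in 10 on the liver surface. Hairpins outside the cluster were not compared in this way. The library ranges of day 4 and day 0 were apart in only 3 of the 12 hairpins at each site. The clearest was miR-299a, whose ratio was -3.80 at day 4 and -1.35 at day 0 in the pelvis, and -3.35 and -1.49 on the liver surface, with library ranges that did not meet at either site.

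As levels, miR-299a-3p was at 328, 499, 400.1, 342 and 261 RPM in the pelvis at day 4, against 96.4, 233, 91.4, 111 and 93.3 RPM at day 0. The partner miR-299a-5p was at 39.0, 46.3, 22.6, 13.2 and 20.6 RPM at day 4, against 38.4, 108, 34.1, 41.6 and 33.9 RPM at day 0. In day 4 replicates 3, 4 and 5 a count of 3 reads equals 22.6, 9.88 and 20.6 RPM. The 5p arm, and with it the pelvic ratio at day 4, therefore rests on few reads in these libraries. The 3p arm was above all day 0 libraries in every day 4 library, whereas the 5p arm overlapped. Between tumor EVs and normal EVs, by contrast, the ratio moved towards 3p in 5 of 10 hairpins and towards 5p in the other 5, and for miR-299a it was -1.19 in tumor EVs and -1.60 in normal EVs with overlapping ranges.

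The make-up of the cluster at day 4 was set against that at day 0. Of the 18 abundant members 9 kept their share of the cluster within 1.5-fold between day 4 and day 0 in the pelvis and 8 on the liver surface, with Spearman correlations of shares of 0.822 and 0.670. Red blood cell miRNAs also rose in the pelvis, where all 3 were called higher at day 4 (summed 25721 to 98847 RPM at day 4 and 680.3 to 51600 RPM at day 0), but none on the liver surface. Of the 4 mesenchymal miRNAs, 2 were called higher at day 4 at each site. The hepatocyte markers on the liver surface summed to 94.1 to 22242 RPM at day 4 and 1297 to 174765 RPM at day 0, with 1 of 2 called lower. The part of these cells, and of the lower depth at day 4, in the changes of the members was not tested.

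**Figure D4:**
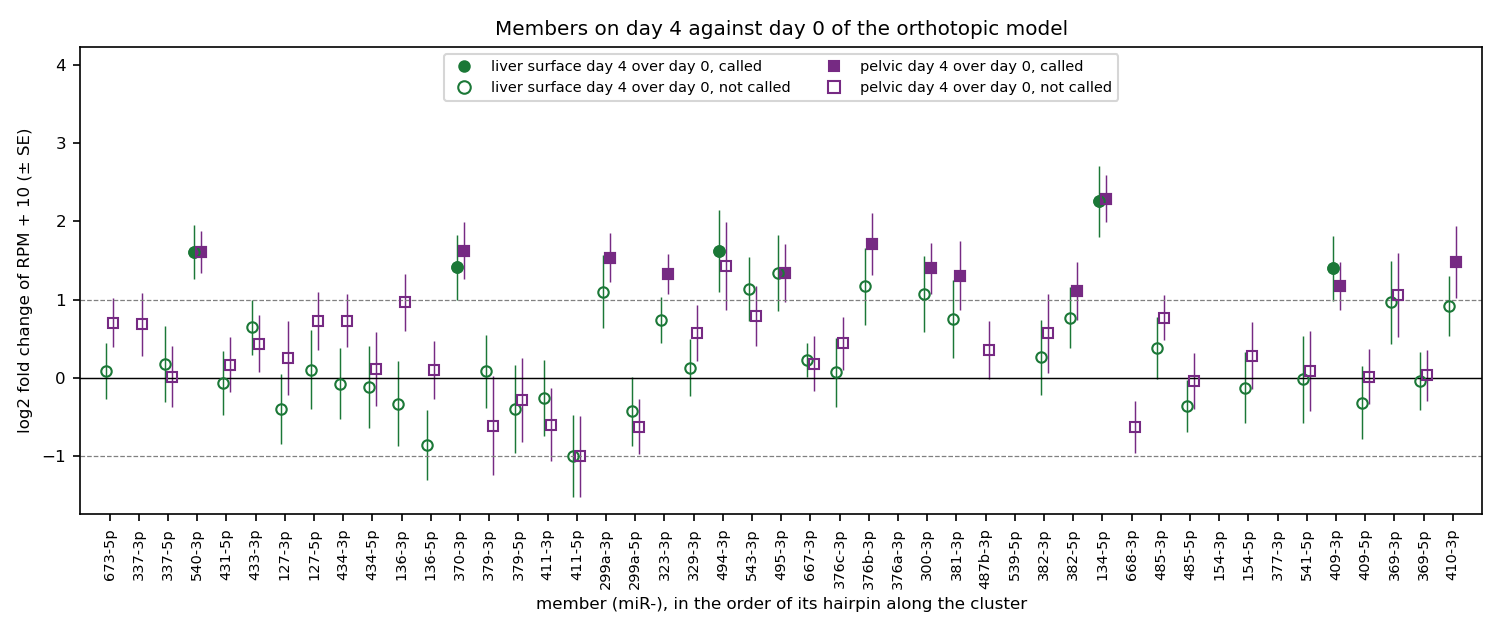
Log2 fold change (± SE) of each tested member at day 4 over day 0, in the order of the hairpins along chromosome 12, in the pelvis (43 members) and on the liver surface (40 members). Values spread from -1.01 to 2.29 in the pelvis and from -1.005 to 2.26 on the liver surface, and miR-134-5p is the highest at both sites.

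How jointly the members moved was described on the deviations of log2(RPM + 10) from the mean of each group, so that differences between groups did not enter. Over the 32 libraries the 153 pairs of the 18 abundant members had a median Pearson correlation of 0.683, with no negative pair (0.0574 to 0.959). The 19900 pairs of the 200 other miRNAs at that level had a median of 0.0842. The libraries are shared by all pairs, as are depth and the RPM total, so these values describe the libraries only.

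The members were most alike at day 0, although differences between sets of libraries were not tested. In the 10 day 0 libraries the median was 0.914 and the lowest pair 0.514, whereas in the 10 day 4 libraries the median was 0.571 and the lowest pair -0.351. In the 6 EV libraries of the first experiment it was 0.824 and in the 6 tissue libraries 0.353, where 44 of 153 pairs were negative. Thinning every library to the depth of the shallowest, a check chosen after the data were seen, gave 0.811 at day 0, 0.528 at day 4, 0.384 in the EVs of the first experiment and 0.124 in tissue. The order of day 0 above day 4 was the same, while the 2 sets of 6 libraries fell to lower values.

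**Figure D5:**
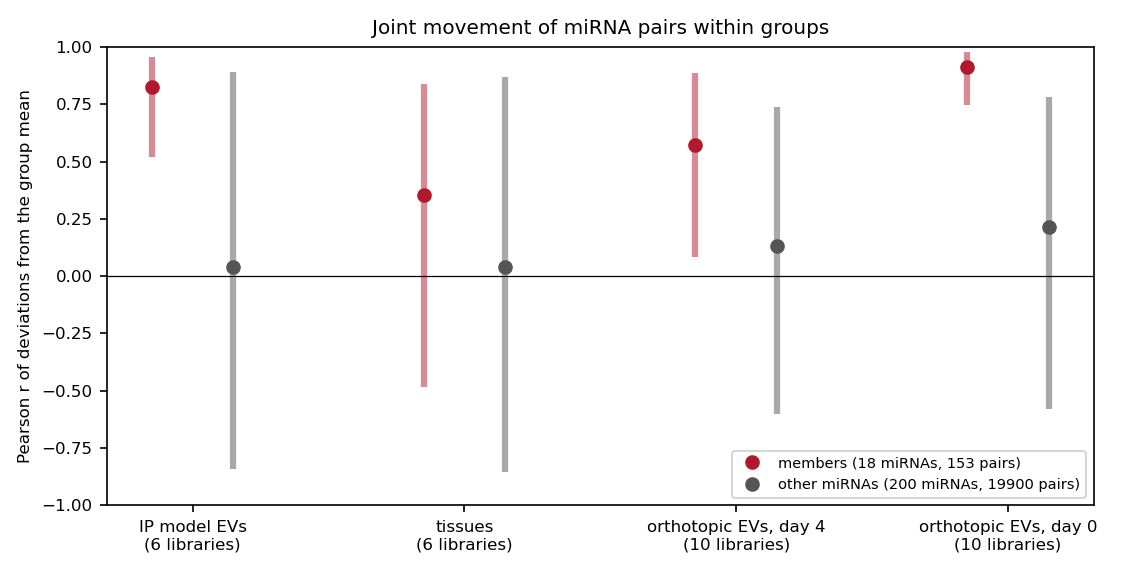
Median Pearson correlation of pairs of miRNAs (points) with the range from the 10th to the 90th percentile of pairs (lines), after the group means were removed, for pairs of the 18 abundant members and for pairs of 200 other miRNAs. The members lie at 0.824 in the EVs of the first experiment, 0.353 in tissue, 0.571 at day 4 and 0.914 at day 0, and the other miRNAs between 0.0377 and 0.212.

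In single libraries, all 18 abundant members lay on the same side of their group means in 10 of the 32 libraries. All 10 were EV libraries, and they included the 5 liver surface libraries of day 0. Normal EV replicate 1 had all 18 above and replicate 3 all 18 below and these were the normal EV libraries with the highest and the lowest summed level.

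The members followed the cluster to different degrees. The correlation of each with the sum of the other members was highest for miR-434-5p (0.924), miR-127-3p (0.922), miR-541-5p (0.915) and miR-379-5p (0.914), and these lie at both ends of the locus. It was lowest for miR-494-3p (0.285), miR-136-3p (0.546), miR-299a-3p (0.586) and miR-434-3p (0.593), over 32 libraries each. All 4 of the least coupled members were 3p arms, and 2 of their 5p partners on the same hairpins, miR-434-5p and miR-136-5p (0.769), were closer to the cluster.

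Other miRNAs encoded between the outermost hairpins of the members were examined in the same way. The table held 54 of these, of which 39 reached a group mean of 10 RPM in no group. Only 9 could be tested between tumor EVs and normal EVs, and these were called lower in tumor EVs, where 36.0% of all tested miRNAs were. Between normal EVs and ovary 9 were tested and called higher in normal EVs, where 35.9% were. The filter left out the rest, so these counts do not describe all 54. Among those tested, miR-376b-5p, miR-341-3p and miR-3071-5p averaged 5.68, 3.08 and 1.13 RPM in tumor EVs, below the 10 RPM of the filter. The filter thus favoured miRNAs that were high in normal EVs and low in tumor EVs, and counts without it are not given for these miRNAs. The most abundant was miR-376b-5p, at 5.68 ± 2.80 RPM in tumor EVs and 145 ± 48.4 RPM in normal EVs (SD, n = 3 each). Its partner arm is the member miR-376b-3p.

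At day 4, 5 of 13 tested miRNAs of this kind were called higher in the pelvis, where 18.9% of all tested miRNAs were, and 1 of 9 on the liver surface, where 15.5% were. The miRNA called on the liver surface was miR-341-3p, at 137 ± 71.5 RPM at day 4 and 23.99 ± 11.2 RPM at day 0 on the liver surface, and at 196 ± 51.4 RPM and 34.4 ± 14.7 RPM in the pelvis (SD, n = 5 each). Its log2 fold changes of 2.07 and 2.25 were close to those of miR-134-5p. For miR-3071-5p, which is transcribed from the strand opposite to miR-136, the values were 1.13 ± 1.28 RPM in tumor EVs and 52.1 ± 18.9 RPM in normal EVs. In tissue none of 3 tested miRNAs of this kind was called.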

How the data were processed

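Small RNA libraries were made with the NEBNext kit after EV RNA was purified with a Norgen kit and tissue RNA with the miRNeasy kit. The authors trimmed the reads and counted them against miRBase 22 in CLC Genomics Workbench 9.5.3 with up to 2 mismatches, so no genome build entered, and deposited one table of RPM values (reads of a miRNA per 1000000 miRNA reads) for 1513 mouse miRNAs in 32 libraries. Each library summed to 1000000 RPM, 104 rows held 0 throughout, and no 2 replicates were identical in the 52 pairs compared. Depth per library ranged from 132483 to 2540577 miRNA reads, recovered from the steps of the RPM values: 100.0% of values were whole reads within 0.001. A count of 0 allows up to 3 reads, which covers counting error only.

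The 47 members, the marker lists and the tests were chosen with earlier results of these data known. Groups came from the sample labels. The main test was limma 3.58.1 with a trend (R 4.3.3) on log2(RPM + 10), two-sided, with no replicate block, on the 2 groups compared, or on the 4 groups of an experiment for an interaction. A miRNA was tested if the number of libraries in which it reached 10 RPM was no smaller than the size of the smaller group, and p-values were adjusted by Benjamini-Hochberg over all tested miRNAs. The test was checked on simulated data. Members named with values were the 10 most abundant, the 3 most changed in each direction per comparison, arm pairs, and members named in the text after their values were seen (miR-299a arms, miR-494-3p in tissue, miR-411-5p at day 4). Likeness was Pearson correlation of deviations from group means for members at 100 RPM or more.

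Alternatives were an added 1 or 50 RPM, no filter or one at 100 RPM, median-of-ratios scaling, thinning to the shallowest library, a replicate block, the series of library names as a covariate, a shared fit, edgeR 4.0.16 and DESeq2 1.42.0 on the recovered read counts, and leaving out each library. Restriction to libraries of 200000 reads or more was added after the data were seen. Samples with the same replicate number deviated together in every pair for tumor EVs and normal EVs (correlations 0.169 to 0.271), normal EVs and ovary (0.182 to 0.255), the sites at day 0 (0.397 to 0.704) and at day 4 (0.119 to 0.737), and the days in the pelvis (0.189 to 0.631), so the blocked values are given where they change a call. This pairing comes from the data, not the labels. Hairpin positions and mature sequences were taken from RefSeq (GRCm38.p6). The positions of Meg3, Rtl1, Rian and Mirg, against which the members were placed, were taken from the GENCODE mouse annotation. All columns of the table were mapped to samples.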

Additional observations from a re-analysis of the deposited data

Results flagged for a closer look

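Pelvic day 0 replicate 2 stood apart from the other 4 libraries of its group for 3 members. It was the highest for miR-411-5p (3078 RPM, the nearest library at 1413 RPM), miR-434-3p (1056 RPM, nearest 515 RPM) and miR-136-3p (610.0 RPM, nearest 296 RPM). A gap of this size relative to the range appears by chance in about 1 in 20 groups, and 44 sets of values were examined. The same library had the highest summed cluster level of its group.

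The tumor effect differed between EVs and tissue for each of the 10 most abundant members, by a test of the difference itself (limma interaction). On the tissue side the effect is tumor against ovary, so a difference in organ is part of it. The differences, EV effect minus tissue effect on the log2 scale, were -3.71 for miR-127-3p, -3.78 for miR-379-5p, -3.92 for miR-381-3p, -3.72 for miR-434-5p and -3.96 for miR-541-5p. They were -3.83 for miR-411-5p, -3.38 for miR-434-3p, -3.18 for miR-300-3p, -3.74 for miR-136-3p and -3.24 for miR-409-3p. The adjusted p-values lay between 7.21e-06 (miR-541-5p) and 0.000226 (miR-136-3p and miR-409-3p).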

How the results depend on the processing

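Every count of called members below is by limma unless another tool is named. A filter at 100 RPM, which tests fewer members, gave 15 members lower in tumor EVs than in normal EVs, 15 for the interaction of EVs and tissue, 6 for tumor EVs over tumor tissue, 13 higher for normal EVs over ovary, 0 lower for tumor tissue over ovary and 2 higher on the liver surface at day 4. An added 50 RPM gave 8 for tumor EVs over tumor tissue, 18 for normal EVs over ovary, 0 for tumor tissue over ovary and 3 for the liver surface. The member called in tumor tissue was also lost, leaving 0, with an added 1 RPM, with no filter and by edgeR. In normal EVs over ovary 1 member was called lower under median-of-ratios scaling, edgeR and DESeq2. Liver surface over pelvis at day 4 had 2 members lower with the replicate block and 3 by DESeq2. In the pelvis 1 member was lower at day 4 with median-of-ratios scaling, with the block and by DESeq2. On the liver surface the count higher at day 4 was 2 with no filter, 2 with the block (there the replicate numbers did not pair the samples, with correlations from -0.325 to 0.539), 2 with libraries of 200000 reads or more, 8 in a shared fit and 8 by DESeq2, and the count lower was 2 with median-of-ratios scaling, 1 by edgeR and 2 by DESeq2.

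Leaving out one library at a time gave 36 to 43 members lower in tumor EVs than in normal EVs, 0 to 1 in tumor tissue, 13 to 18 in tumor EVs over tumor tissue, 25 to 33 higher in normal EVs over ovary, 9 to 14 higher and 0 to 1 lower in the pelvis at day 4 (1 without pelvic day 4 replicate 1), and 2 to 8 higher and 0 to 1 lower on the liver surface (1 without day 0 replicate 3). With the replicate block 30 members were higher in normal EVs over ovary, and the counts for tumor EVs over normal EVs (36), tumor tissue over ovary (1), tumor EVs over tumor tissue (15) and the sites at day 0 (0) were those of the fit without it. Of the fold changes of single named members, 29 values under other settings and 23 without one library were past the call threshold no longer, 4 and 1 came past it, and none changed sign. The causes were not tested. Depth limits the day 4 groups, where 3 libraries held under 200000 reads. In these 3 libraries a count of 3 reads equals 17.0 to 22.6 RPM, so members near or below that level rest on few reads there.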

Other observations

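Outside chromosome 12, the miRNAs whose deviations from the group means were most like those of the summed cluster, among 196 miRNAs at 100 RPM or more, were miR-218-5p (Pearson 0.800), miR-99b-5p (0.750), miR-10a-5p (0.735), miR-100-5p (0.716) and miR-99b-3p (0.645). These values are over the same 32 libraries, which share depth and the RPM total, and are descriptions. Between groups they did not all follow the cluster. For miR-10a-5p the means were 6981 RPM in tumor EVs and 25717 RPM in normal EVs, but for miR-99b-5p they were 5329 RPM in tumor EVs and 2401 RPM in normal EVs.

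A short list of 7 miRNAs from the Mest, Igf2, H19 and Sfmbt2 loci summed to 18.97 to 36.4 RPM in tumor EVs and 69.8 to 126.8 RPM in normal EVs. The Igf2 and H19 entries (miR-483-5p, miR-483-3p and miR-675-3p) were at 0 in both groups, so the sums come from the other loci. Of the 2 tested, 1 was called lower in tumor EVs, where 36.0% of all tested miRNAs were.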
